A study of Mus musculus with 16 samples.

Results

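Lung ILC2s from *Pac1-/-* mice were compared with lung ILC2s from WT mice after 4 hours with IL-7, IL-33, and CGRP, over all 4 libraries of this treatment among the 16 libraries of the series. The comparison was set by genotype and treatment labels alone, with 2 libraries per genotype, and no library was chosen by its values. Many of the genes named below were chosen by their P values or after values of these data were seen. Group 2 innate lymphoid cells (ILC2s) are tissue lymphocytes that lack antigen receptors and secrete type 2 cytokines. *Pac1-/-* mice (C57BL/6J background) lack PAC1, a dual-specificity phosphatase encoded by *Dusp2*, and WT mice carry the intact gene. Mice of the study were 6 to 8 weeks old and of both sexes, and the sex of the mice behind these libraries is not stated. Both groups received IL-7 at 100 ng/mL, IL-33 at 100 ng/mL, and CGRP at 500 ng/mL. The other 12 libraries of both genotypes came from cells with IL-7 alone, with IL-7 plus IL-33, or with IL-7 plus IL-33 plus the neuropeptide NMU at 500 ng/mL, and these treatments are called IL-7, IL-33, and NMU here. About 500 sorted ILC2s were lysed per library, and full-length cDNA was amplified. The sources used here name no Cre driver for *Pac1-/-* mice and do not limit their deletion to ILC2s. For deletion in ILC2s the study used a separate line, floxed *Pac1* mice crossed with Red5 mice that carry Cre at *Il5*. Cultured ILC2s for functional assays of the study had been expanded with IL-2 and IL-7 beforehand, and whether this applied to these libraries is not stated. Nothing in the labels says that the 2 libraries of a group came from separate animals, so P values measure the spread between these libraries, which may be technical.

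CGRP is a neuropeptide that binds a receptor made of CALCRL and RAMP1 and raises intracellular cAMP. cAMP activates protein kinase A, which phosphorylates CREB, and phosphodiesterases degrade it. In lung ILC2s, CGRP is known as a restraint on proliferation and on IL-13, whereas IL-33, through its receptor ST2, the NF-κB pathway, and MAP kinases, is a main activator. PAC1 removes phosphate from MAP kinases in the nucleus.

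The 4 libraries held 8333920 to 12366516 counts on genes. CPM, read counts relative to the library total after TMM scaling in edgeR, are the unit used and are given for replicate 1 and then replicate 2 of each genotype. A floor of 3 counts equals 0.252 to 0.361 CPM and covers counting error only, since no molecular identifiers are described. Genes with at least 1 count numbered 12897 and 13776 in WT and 15570 and 15655 in *Pac1-/-* libraries. Ribosomal protein genes took 11.9% and 10.9% of the counts in WT and 14.6% and 14.2% in *Pac1-/-* libraries, against 5.59% to 10% in the other 12 libraries. The labelled cell type matched its markers, with all 14 ILC2 markers detected and summed at 20490 and 21230 CPM in WT and 19020 and 18470 CPM in *Pac1-/-*. *Dusp2* (ENSMUSG00000027368) had 0 counts in all 4 CGRP libraries, of either genotype, and in 10 of the other 12, so it could not check the genotype here.

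Among 10912 genes tested, 5639 were higher and 5271 lower in *Pac1-/-* libraries, with a median log2 fold change of 0.04 (*Pac1-/-* relative to WT, as throughout). None, 0%, passed a fold change over 1.5 and an adjusted P under 0.05 by the quasi-likelihood F test of edgeR after Benjamini-Hochberg adjustment, in which the lowest adjusted P was 0.552. At an unadjusted P under 0.05, 486 genes (4.45%) were higher and 336 (3.08%) were lower. This balance turned with the libraries used. It was 170 higher and 477 lower without *Pac1-/-* replicate 1, 175 and 310 without *Pac1-/-* replicate 2, 514 and 168 without WT replicate 1, 723 and 219 without WT replicate 2, and 249 and 270 over genes with at least 10 counts in every library. DESeq2, used by the study and run here as an alternative, called 189 of 11317 genes (1.67%) higher and 140 (1.24%) lower at the same cutoff. With the spread taken from all 16 libraries in 1 edgeR fit, 16 of 14979 genes (0.107%) were called. Both *Pac1-/-* libraries lay above both WT libraries for 2326 genes (21.3%) and below both for 1924 (17.6%). These shares are the background for the counts of separated members given for gene groups, and a group near them is no result about the group. Genes of at least 200 CPM, 766 in number, had a median absolute log2 fold change of 0.277 between genotypes and a median difference of 0.226 between replicates, and for the 4528 genes under 10 CPM the values were 1.09 and 1.13. For genes of 50 to 200 CPM they were 0.365 and 0.423. The first value compares means of 2 libraries and the second compares single libraries, so they are not on an equal footing and are given as a description.

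A set of 30 genes, 15 per direction, was named for having the smallest P values among genes of at least 10 CPM on average, separated genotypes, and no mention in the study's text. Each of these 30 genes was called by DESeq2 and none by edgeR. Among them, 10 had 0 counts in both libraries of 1 genotype, and 9 averaged at least 100 CPM. Immunoglobulin genes made up 6 of the 15 higher genes and 1 of the 15 lower genes, and 4 of the 15 lower genes were Zfp zinc finger genes. Over all 10912 genes tested, 30 were immunoglobulin genes and 214 were Zfp genes. On chromosome 17 lie 4 of the 15 lower genes, and the share of all tested genes on it was not taken. These counts describe genes picked by P and are no result about a family or a chromosome.

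**Figure D1:**
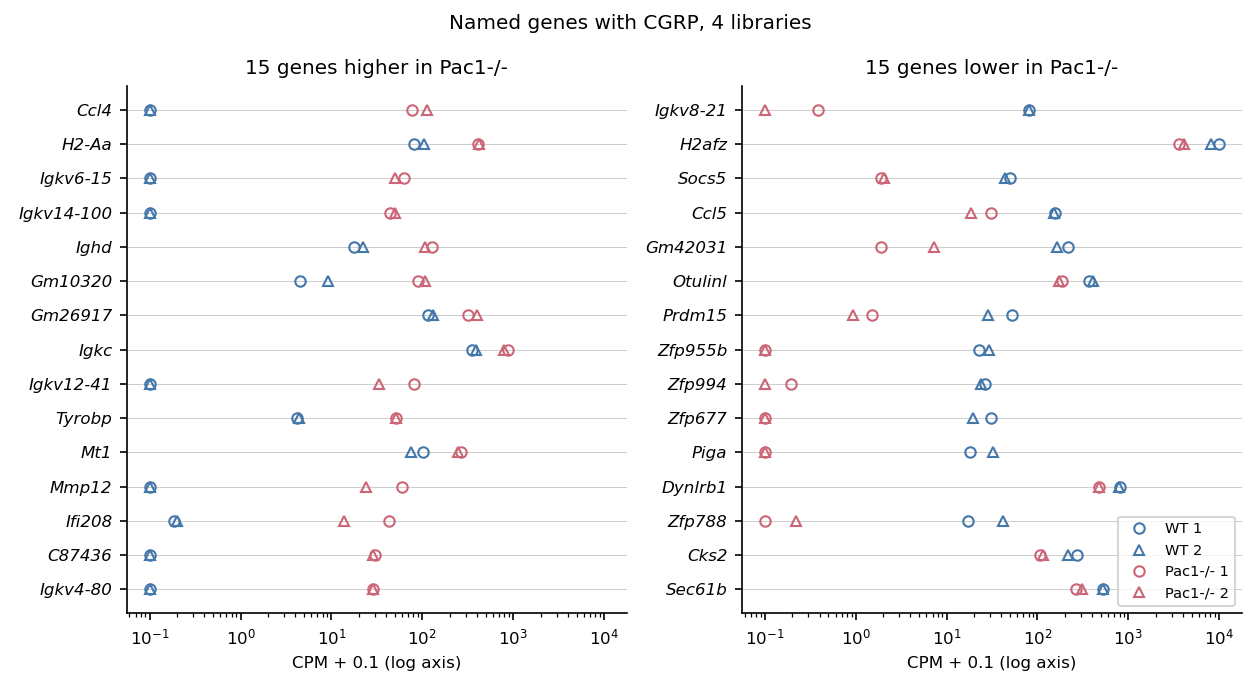
CPM plus 0.1 (log axis) in each of the 4 CGRP libraries for the 15 genes higher (left) and the 15 lower (right) in *Pac1-/-*, with circles for replicate 1, triangles for replicate 2, blue for WT, and red for *Pac1-/-*. The genotypes are separated in every row because that was required, and points at the left edge are libraries without a count, such as both WT libraries for *Ccl4*.

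The chemokine genes *Ccl4* and *Ccl5* were both among the 30 genes, with opposite signs. *Ccl4* (ENSMUSG00000018930, chr11:83662584-83664683, GRCm38) had 0 counts in both WT libraries and 77.6 and 113 CPM in the *Pac1-/-* libraries, at least 342-fold higher against a floor of 3 counts per library (DESeq2, adjusted P = 5.55e-12). *Ccl5* was detected at 154 and 151 CPM in WT and 30.7 and 18.3 CPM in *Pac1-/-*. Its log2 fold change was -2.63 ± 0.38 (edgeR estimate ± SE, as throughout, DESeq2 adjusted P = 1.0e-06). Estimates and SEs come from the edgeR fit, in which no gene passed, with the SE derived from the F statistic. DESeq2 adjusted P values come from a separate fit. The genotypes did not overlap for either gene, which the choice of the 30 genes required. *Ccl4* had 0 counts in the 8 libraries of IL-7 and IL-33, and with NMU it was the WT libraries that were higher (81.0 and 41.7 CPM against 8.69 and 1.53 CPM). *Cxcl2*, a neutrophil attractant, was measured at 949 and 1084 CPM in WT and 1582 and 1405 CPM in *Pac1-/-* (log2 fold change 0.56 ± 0.15, DESeq2 adjusted P = 0.107), and *Ccl1*, a ligand of CCR8, at 1868 and 1787 CPM in WT and 1501 and 1415 CPM in *Pac1-/-* (log2 fold change -0.33 ± 0.13, DESeq2 adjusted P = 0.333). Neither passed a test, although the genotypes did not overlap for either. *Ccl17* and *Ccl22* had 0 counts in all 4 libraries.

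The receptor for CGRP was expressed in both genotypes. *Calcrl*, the ligand-binding subunit, was measured at 76.1 and 66.7 CPM in WT and 60.1 and 88.4 CPM in *Pac1-/-* (log2 fold change 0.06 ± 0.35), and the genotypes overlapped. Its sign turned when *Pac1-/-* replicate 2 was left out (-0.25) or WT replicate 2 (-0.03). *Ramp1*, its partner, was measured at 209.8 and 153 CPM in WT and 239 and 353 CPM in *Pac1-/-* (log2 fold change 0.70 ± 0.30, DESeq2 adjusted P = 0.359). Both *Pac1-/-* libraries lay above both WT libraries for *Ramp1*, but by less than the difference between the *Pac1-/-* libraries for the nearer pair.

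Downstream of the receptor, the 20 tested of 30 listed genes of cAMP production, protein kinase A, and phosphodiesterases split evenly, with 10 higher and 10 lower and a median log2 fold change of 0.06. This median turned its sign, to -0.25 without WT replicate 1 and to -0.04 without *Pac1-/-* replicate 2, and was 0.39 without WT replicate 2 and -0.15 with the replicate number as a block. Of the 20, 6 (30%) were separated upward and 8 (40%) downward, 2 higher and 2 lower genes reached an unadjusted P under 0.05, and DESeq2 called none. *Pde4b*, a cAMP-degrading phosphodiesterase, was at 76.4 and 66.2 CPM in WT and 162 and 116 CPM in *Pac1-/-* (log2 fold change 0.96 ± 0.30, DESeq2 adjusted P = 0.199). Both *Pac1-/-* libraries were above both WT libraries. A pair of other phosphodiesterase genes had log2 fold changes below 0. *Pde7b*, also specific for cAMP, was at 79.3 and 22.8 CPM in WT and 12.8 and 9.51 CPM in *Pac1-/-* (log2 fold change -2.19 ± 0.80, DESeq2 adjusted P = 0.13), with WT replicate 1 well above the rest. *Pde3b*, which cGMP inhibits, was at 110.3 and 78.8 CPM in WT and 62.3 and 55.5 CPM in *Pac1-/-* (log2 fold change -0.68 ± 0.33, DESeq2 adjusted P = 0.497). *Prkacb*, a catalytic subunit of protein kinase A, was at 18.9 and 19.7 CPM in WT and 61.2 and 39.4 CPM in *Pac1-/-* (log2 fold change 1.38 ± 0.50). *Prkar1a*, a regulatory subunit, overlapped between genotypes at 442 and 481 CPM in WT and 411 and 499 CPM in *Pac1-/-*. *Rapgef2*, an exchange factor for the GTPase RAP1, was at 72.2 and 71.1 CPM in WT and 29 and 26.7 CPM in *Pac1-/-* (log2 fold change -1.36 ± 0.36, DESeq2 adjusted P = 0.0731). *Gnai1*, an inhibitory G protein subunit that lowers cAMP production, was at 12.5 and 39.4 CPM in WT and 0.752 and 0.361 CPM in *Pac1-/-*, and DESeq2 called it lower (adjusted P = 2.49e-04). It belongs to a separate list of RGS, arrestin, GRK, and G protein genes. Of 38 tested genes of that list, 17 were higher, 10 (26.3%) were separated upward, and 6 (15.8%) downward. Their median log2 fold change was -0.07, or 0.004 without WT replicate 1, and DESeq2 called 1 of them lower and 0 higher.

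Of 25 tested CREB family factors and early genes that cAMP is known to induce (27 listed), 17 were higher in *Pac1-/-* and 8 lower, with a median log2 fold change of 0.17, or 0.01 without WT replicate 1 and 0.36 without WT replicate 2. Of these, 9 (36%) were separated upward, 4 (16%) downward, 4 reached an unadjusted P under 0.05, all higher, and DESeq2 called none. *Nr4a2*, an orphan nuclear receptor, was at 149 and 139 CPM in WT and 225 and 289 CPM in *Pac1-/-* (log2 fold change 0.84 ± 0.23, DESeq2 adjusted P = 0.116). *Rgs2*, a regulator of G protein signaling, was at 3729.8 and 3635 CPM in WT and 5603 and 4584 CPM in *Pac1-/-* (log2 fold change 0.47 ± 0.14, DESeq2 adjusted P = 0.20). *Crebbp*, a CREB coactivator, was at 40.5 and 54 CPM in WT and 108 and 103 CPM in *Pac1-/-* (log2 fold change 1.16 ± 0.31, DESeq2 adjusted P = 0.11). For these 3 genes both *Pac1-/-* libraries were the higher ones. *Crem*, which yields inducible repressors of CREB, was lower at 6196 and 6882 CPM in WT and 5739.6 and 5196 CPM in *Pac1-/-* (log2 fold change -0.26 ± 0.12), and *Nr4a1* and *Nr4a3* had overlapping genotypes or nearly so, with log2 fold changes of 0.38 ± 0.25 and -0.17 ± 0.22. Leaving out WT replicate 2 turned the sign of *Nr4a3* (0.03). In RefSeq promoters of 300 bases (GRCm38.p6), which were found for 18 of the 25 genes, the shorter site TGACG or its complement CGTCA was present in 12 of 21 (57.1%), against 20.8% of all 32851 promoters, and the full TGACGTCA, which contains the shorter site, in 2 of 21 (9.52%), against 1.79%.

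The AP-1 and ATF factors, leucine zipper proteins that act in pairs at early genes, leaned upward. Of 19 tested genes (22 listed), 13 were higher, 9 (47.4%) were separated upward, and 1 (5.26%) was separated downward, with a median log2 fold change of 0.43. *Fosb* was at 113 and 125 CPM in WT and 234 and 209.8 CPM in *Pac1-/-* (log2 fold change 0.90 ± 0.21, DESeq2 adjusted P = 0.0608). *Junb* was at 269 and 236 CPM in WT and 399 and 385 CPM in *Pac1-/-* (log2 fold change 0.63 ± 0.18, DESeq2 adjusted P = 0.156). *Fos* and *Fosl2* were also separated, with smaller log2 fold changes of 0.38 ± 0.17 and 0.26 ± 0.15, whereas *Jun* overlapped at 54.7 and 40.9 CPM in WT and 54.8 and 39.5 CPM in *Pac1-/-*. In this family 3 members reached an unadjusted P under 0.05, and none was called by edgeR or DESeq2. The median was 0.24 without *Pac1-/-* replicate 1 and at most 0.43 without another library. In the other treatments it was -0.08 (IL-7), 0.62 (IL-33), and 0.34 (NMU). The difference of this median between treatments was not tested, and IL-33 without CGRP gave the larger value.

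Further early genes of the EGR, IER, KLF, BTG, and GADD45 families were mixed, with 19 of 31 tested genes higher, 10 (32.3%) separated upward, and 4 (12.9%) downward. *Klf6*, a zinc finger transcription factor, was at 401 and 361 CPM in WT and 877 and 579.9 CPM in *Pac1-/-* (log2 fold change 0.93 ± 0.25), and DESeq2 called it higher (adjusted P = 0.0415). *Btg2*, an antiproliferative gene, was at 163 and 180.3 CPM in WT and 332 and 261 CPM in *Pac1-/-* (log2 fold change 0.79 ± 0.22, DESeq2 adjusted P = 0.126). *Klf3*, a transcriptional repressor, was at 133 and 71 CPM in WT and 48 and 38.7 CPM in *Pac1-/-* (log2 fold change -1.23 ± 0.43). *Egr2* was nearly absent from *Pac1-/-* libraries, at 4.71 and 10.3 CPM in WT and 0 and 0.12 CPM in *Pac1-/-* (DESeq2 adjusted P = 0.0518).

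PAC1 belongs to the dual-specificity phosphatases, and its relatives showed no common direction. Of 16 tested genes of this family and of feedback inhibitors of MAP kinase signaling (24 listed), 9 were higher, 5 (31.2%) were separated upward, and 3 (18.8%) downward. *Dusp1* was at 98.6 and 96.5 CPM in WT and 132 and 137 CPM in *Pac1-/-* (log2 fold change 0.46 ± 0.23), and *Dusp5*, another nuclear member, was at 134 and 110.4 CPM in WT and 154 and 138 CPM in *Pac1-/-* (log2 fold change 0.25 ± 0.24). *Spry2*, an inhibitor of receptor tyrosine kinase signaling, was at 432 and 421 CPM in WT and 534 and 740.2 CPM in *Pac1-/-* (log2 fold change 0.58 ± 0.22, DESeq2 adjusted P = 0.285). *Dusp22* was the 1 member that DESeq2 called, with 0 counts in WT and 4.32 and 14.7 CPM in *Pac1-/-*, at least 34-fold higher. Of 32 tested genes of the MAP kinase cascade (35 listed), 15 were higher, 8 (25%) were separated upward and 4 (12.5%) downward, and the median log2 fold change was -0.05, or 0.06 without WT replicate 1 and 0.21 with the replicate number as a block. DESeq2 called 3 of them lower. These were *Map2k7*, which activates JNK, at 14.9 and 9.51 CPM in WT and 0.094 and 0.241 CPM in *Pac1-/-* (DESeq2 adjusted P = 0.00396), *Mapk9*, which encodes JNK2, at 32.6 and 32.1 CPM in WT and 4.6 and 6.14 CPM in *Pac1-/-* (DESeq2 adjusted P = 0.0185), and *Sos1*, an exchange factor for RAS, at 31.7 and 84.9 CPM in WT and 6.39 and 10.5 CPM in *Pac1-/-* (DESeq2 adjusted P = 0.0126).

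NF-κB subunits and inhibitors were higher for 17 of 24 tested genes, with 9 (37.5%) separated upward, 4 (16.7%) downward, and a median log2 fold change of 0.20, or 0.12 without WT replicate 2. *Nfkbia*, the inhibitor IκBα and itself an NF-κB target, was at 1621 and 1748 CPM in WT and 2927 and 2275 CPM in *Pac1-/-* (log2 fold change 0.63 ± 0.17, DESeq2 adjusted P = 0.0783). Both members called by DESeq2 were lower. They were *Ikbkg*, the NEMO subunit of the IκB kinase, with 10.4 and 17.8 CPM in WT and 0 counts in *Pac1-/-*, at least 43.9-fold lower, and *Nfkbie*, the inhibitor IκBε, at 65.1 and 56.3 CPM in WT and 16.3 and 4.94 CPM in *Pac1-/-* (DESeq2 adjusted P = 0.0335). *Birc2*, an inhibitor of apoptosis that acts in TNF receptor signaling, was at 17.7 and 30.5 CPM in WT and 61.6 and 96.9 CPM in *Pac1-/-* (log2 fold change 1.72 ± 0.50).

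Effector cytokine genes were lower more often than higher. Of 17 tested (23 listed), 7 were higher and 10 lower in *Pac1-/-*, 3 (17.6%) were separated upward and 7 (41.2%) downward, and the median log2 fold change was -0.53, against -0.003 (IL-7), 0.22 (IL-33), and 0.61 (NMU). As each library was left out the median ranged from -0.59 to -0.08, the latter without *Pac1-/-* replicate 2 or without WT replicate 2. *Il9*, a growth factor for mast cells and ILC2s, was at 36 and 14 CPM in WT and 0.752 and 0.241 CPM in *Pac1-/-* (log2 fold change -5.61 ± 1.31, DESeq2 adjusted P = 2.49e-04). *Il17f* was at 394 and 407 CPM in WT and 138 and 50.9 CPM in *Pac1-/-* (log2 fold change -2.09 ± 0.52, DESeq2 adjusted P = 0.00108). *Penk*, which encodes enkephalins, had 12.4 and 3.89 CPM in WT and 0 counts in *Pac1-/-*, at least 25.3-fold lower. These were the 3 members called by DESeq2, and in each of them both *Pac1-/-* libraries were below both WT libraries. *Il4* was at 137 and 117 CPM in WT and 80.4 and 84.1 CPM in *Pac1-/-* (log2 fold change -0.63 ± 0.26, DESeq2 adjusted P = 0.406), and *Il3* at 126 and 108 CPM in WT and 73.4 and 31 CPM in *Pac1-/-* (log2 fold change -1.16 ± 0.50, DESeq2 adjusted P = 0.29). *Il5*, the eosinophil growth factor, was at 8961 and 9723 CPM in WT and 8848 and 8103 CPM in *Pac1-/-* (log2 fold change -0.14 ± 0.11), and *Il13* was low in both genotypes, at 6.31 and 13.6 CPM in WT and 8.36 and 4.7 CPM in *Pac1-/-*, and overlapped. *Areg*, *Csf2*, and *Il2* also overlapped, with log2 fold changes of 0.04 ± 0.16, 0.08 ± 0.16, and 0.01 ± 0.23, and each turned its sign when 1 of the 4 libraries was left out. *Ifng* and *Tbx21* had 0 counts in all 4 libraries. *Osm*, which encodes oncostatin M of the IL-6 family, was called higher by DESeq2 at 0.336 and 1.43 CPM in WT and 4.23 and 43.5 CPM in *Pac1-/-* (adjusted P = 0.0349), and *Pac1-/-* replicate 2 was far above the rest.

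Cytokine receptors for the common γ chain cytokines were mixed, with 13 of 23 tested genes higher. *Il2ra*, the α chain of the IL-2 receptor, was at 955 and 961 CPM in WT and 587 and 630.5 CPM in *Pac1-/-* (log2 fold change -0.66 ± 0.14), and DESeq2 called it lower (adjusted P = 0.0148). The replicates of either genotype lay close together, and the genotypes were well apart. In the other treatments its log2 fold change was -0.03 (IL-7), 0.24 (IL-33), and -0.02 (NMU). *Il7r* and *Il1rl1*, which encodes ST2, were lower on average by small amounts (log2 fold changes -0.24 ± 0.19 and -0.20 ± 0.16), and *Il2rg* overlapped. *Il1r2*, the decoy receptor for IL-1, was at 18.3 and 34.5 CPM in WT and 0 and 0.482 CPM in *Pac1-/-* (DESeq2 adjusted P = 1.88e-04). Among feedback inhibitors of cytokine signaling, 8 of 14 tested genes were higher, and *Socs5* (chr17:87107679-87137839, GRCm38) was at 49.7 and 43.6 CPM in WT and 1.79 and 1.93 CPM in *Pac1-/-* (log2 fold change -4.64 ± 0.66, DESeq2 adjusted P = 1.33e-08). Both *Pac1-/-* libraries were near 0, and in the other treatments the log2 fold change was 1.25 (IL-7), 0.69 (IL-33), and 0.04 (NMU). *Socs2* was at 292 and 264 CPM in WT and 228 and 204 CPM in *Pac1-/-*, and *Pias1*, a SUMO ligase that restrains cytokine signaling, at 107 and 109 CPM in WT and 59.9 and 43.6 CPM in *Pac1-/-* (log2 fold change -1.06 ± 0.31).

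ILC2 transcription factors were close to the background, with 12 of 24 tested genes higher, 5 (20.8%) separated upward, and 6 (25%) downward. *Gata3*, the lineage-defining factor, was at 704 and 646 CPM in WT and 586 and 617 CPM in *Pac1-/-* (log2 fold change -0.17 ± 0.15), and *Id2* at 4118 and 4019 CPM in WT and 3667 and 3452 CPM in *Pac1-/-* (log2 fold change -0.19 ± 0.11). *Rora* overlapped, with a log2 fold change of -0.07 ± 0.14 that turned to 0.01 without *Pac1-/-* replicate 1. *Nfil3* was at 78.1 and 100.2 CPM in WT and 184 and 143 CPM in *Pac1-/-* (log2 fold change 0.88 ± 0.28), and *Fli1*, an ETS factor, at 155 and 129 CPM in WT and 76.1 and 74.5 CPM in *Pac1-/-* (log2 fold change -0.92 ± 0.26). Of surface genes, *Cd69*, an early activation marker, was at 1429 and 1607 CPM in WT and 2527 and 2039 CPM in *Pac1-/-* (log2 fold change 0.59 ± 0.17, DESeq2 adjusted P = 0.102). *Icos*, *Thy1*, and *Klrg1* overlapped.

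MHC class II genes, which encode the dimers that present peptides to CD4+ T cells and the proteins that load them, were mostly higher in *Pac1-/-* libraries. Of 13 listed, 11 were tested, 8 were higher in *Pac1-/-*, 7 (63.6%) were separated upward and 1 (9.09%) downward, and DESeq2 called 7, all higher. Of the 9 with counts in both genotypes, 6 were higher and 5 (55.6%) were separated upward, with a median log2 fold change of 1.18. Over all 11 the median was 1.55, and 1.40 to 2.23 as each library was left out. This includes 2 genes at 0 counts in both WT libraries, which entered the test only through *Pac1-/-* libraries and could only be higher. In the other treatments the median was -1.63 (IL-7), 0.40 (IL-33), and -0.92 (NMU). *H2-Aa* (ENSMUSG00000036594, chr17:34282744-34287823, GRCm38), an α chain, was at 80.6 and 104 CPM in WT and 409 and 418 CPM in *Pac1-/-* (log2 fold change 2.16 ± 0.22, DESeq2 adjusted P = 1.65e-11). *H2-Ab1* and *H2-Eb1*, which encode β chains, had log2 fold changes of 1.18 ± 0.28 and 1.55 ± 0.32 (DESeq2 adjusted P = 0.0469 and 0.012). For all 3 genes the *Pac1-/-* libraries were close to each other and above both WT libraries. For *H2-Aa* the WT libraries with CGRP were in turn above all 12 libraries of the other treatments. *Cd74*, the invariant chain, was at 20.6 and 64.8 CPM in WT and 252 and 158 CPM in *Pac1-/-* (log2 fold change 2.26 ± 0.65, DESeq2 adjusted P = 0.0109). *Ctss*, the protease that degrades the invariant chain, was at 36.3 and 13.1 CPM in WT and 214 and 126 CPM in *Pac1-/-* (log2 fold change 2.78 ± 0.63, DESeq2 adjusted P = 5.58e-04). *H2-DMb2* and *H2-Ob*, subunits of the peptide editing proteins, had 0 counts in WT and 11.2 and 33.4 CPM and 10.9 and 54.6 CPM in *Pac1-/-*, at least 79.7-fold and 117-fold higher. *Ciita*, the master regulator of these genes, overlapped at 16.3 and 0 CPM in WT and 0.188 and 7.95 CPM in *Pac1-/-*. Reads of near-identical H2 genes are uncertain between them, since how shared reads were counted is not given in the sources used here.

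Many MHC promoters hold a short element, the Y box, which contains the reverse complement of CCAAT and is bound by the factor NF-Y. It is shown with its flank for *H2-Aa*, *H2-Eb1*, *H2-DMb2*, and *H2-Ob*. The letters come from RefSeq starts on GRCm38.p6 and run 5′ to 3′ on the strand of the gene, with TGATTGG in capitals. The same search gave no stretch for *H2-Ab1* or *Cd74*, because either no match or no promoter was found.
H2-Aa: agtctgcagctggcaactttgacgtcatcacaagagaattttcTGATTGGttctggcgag
H2-Eb1: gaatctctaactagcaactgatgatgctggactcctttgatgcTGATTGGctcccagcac
H2-DMb2: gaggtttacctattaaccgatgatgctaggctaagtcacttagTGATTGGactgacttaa
H2-Ob: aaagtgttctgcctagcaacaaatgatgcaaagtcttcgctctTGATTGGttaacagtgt
The stretches lie at chr17:34287857-34287916 (- strand), chr17:34305763-34305822 (+ strand), chr17:34145114-34145173 (+ strand), and chr17:34238803-34238862 (+ strand), with the element starting 50, 61, 92, and 59 bases before the transcript start. Searched on both strands from 250 bases before to 50 bases after the start, TGATTGG or CCAATCA was present in 5 of the 8 promoters found for 7 of the 11 tested genes (62.5%), in 11 of 22 promoters of MHC class I genes (50%), and in 7.82% of all promoters. The stretch of *H2-Aa* also holds TGACGTCA, which does not overlap the Y box. Of 23 MHC class I genes tested, 11 were higher, 4 (17.4%) were separated upward, and 5 (21.7%) downward, and *B2m*, the common light chain, was at 17610.3 and 17248 CPM in WT and 12382 and 13884 CPM in *Pac1-/-* (log2 fold change -0.41 ± 0.11, DESeq2 adjusted P = 0.14). A match describes the letters only.

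Immunoglobulin genes and markers of B cells were higher in the same libraries as the MHC class II genes. On the scale of all 16 libraries, summed immunoglobulin counts were 863 and 938 CPM in WT and 2216 and 1936 CPM in *Pac1-/-* libraries, against 21.5 to 173 CPM in the other 12 libraries. Of 394 such genes, 30 were tested, 26 of them higher in *Pac1-/-* and 24 (80%) separated upward, with 15 at 0 counts in both WT libraries and 1 at 0 in both *Pac1-/-* libraries. Genes at 0 in 1 genotype entered the test only through the other, which fixes their direction. Of the 14 with counts in both genotypes, 11 were higher, 9 (64.3%) were separated upward, and 3 downward, with a median log2 fold change of 0.96. Over all 30 the median was 6.99, or 4.37 with genes absent from 1 genotype set at the bound that 3 counts give, and it was 1.09 over the members with at least 10 counts in every library. *Igkc*, the κ constant region, was at 350.1 and 394 CPM in WT and 881 and 784 CPM in *Pac1-/-* (log2 fold change 1.16 ± 0.17, DESeq2 adjusted P = 1.57e-05), and *Ighd* at 17.7 and 22.2 CPM in WT and 129 and 107 CPM in *Pac1-/-* (log2 fold change 2.57 ± 0.34, DESeq2 adjusted P = 1.45e-06). The variable genes *Igkv6-15*, *Igkv14-100*, *Igkv12-41*, and *Igkv4-80* had 0 counts in WT and 62.7 and 50.5, 43.7 and 50.1, 80.3 and 33.1, and 28.3 and 28.8 CPM in *Pac1-/-*. *Igkv8-21* ran the other way, at 80.4 and 81.1 CPM in WT and 3 counts in *Pac1-/-* replicate 1, a ratio of 509.7-fold (95% counting interval 174 to 2474). The 6 markers of B and plasma cells were all detected and summed at 128 and 191 CPM in WT and 483 and 407 CPM in *Pac1-/-*, and 5 of 5 tested were separated upward. *Cd79b*, a subunit of the B cell receptor, was at 32.9 and 57.6 CPM in WT and 151 and 150.2 CPM in *Pac1-/-* (DESeq2 adjusted P = 0.00661), and *Ms4a1*, which encodes CD20, at 0 and 10.9 CPM in WT and 78.3 and 70.1 CPM in *Pac1-/-*. On the scale of all 16 libraries this sum was 136 to 521 CPM with CGRP and 13.6 to 116 CPM in the other treatments. Macrophage markers summed at 4.96 and 21.1 CPM in WT and 9.77 and 4.58 CPM in *Pac1-/-*, with 8 of 14 at 0 counts, and dendritic cell markers at 24.9 and 90.5 CPM and 40.3 and 37.3 CPM. Most B cells, T cells, NK cells, and myeloid cells had been depleted by immunomagnetic selection before ILC2s were sorted. What part other cells have in these values was not tested. In bulk samples, fewer cells of a type and less RNA per cell cannot be told apart.

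**Figure D2:**
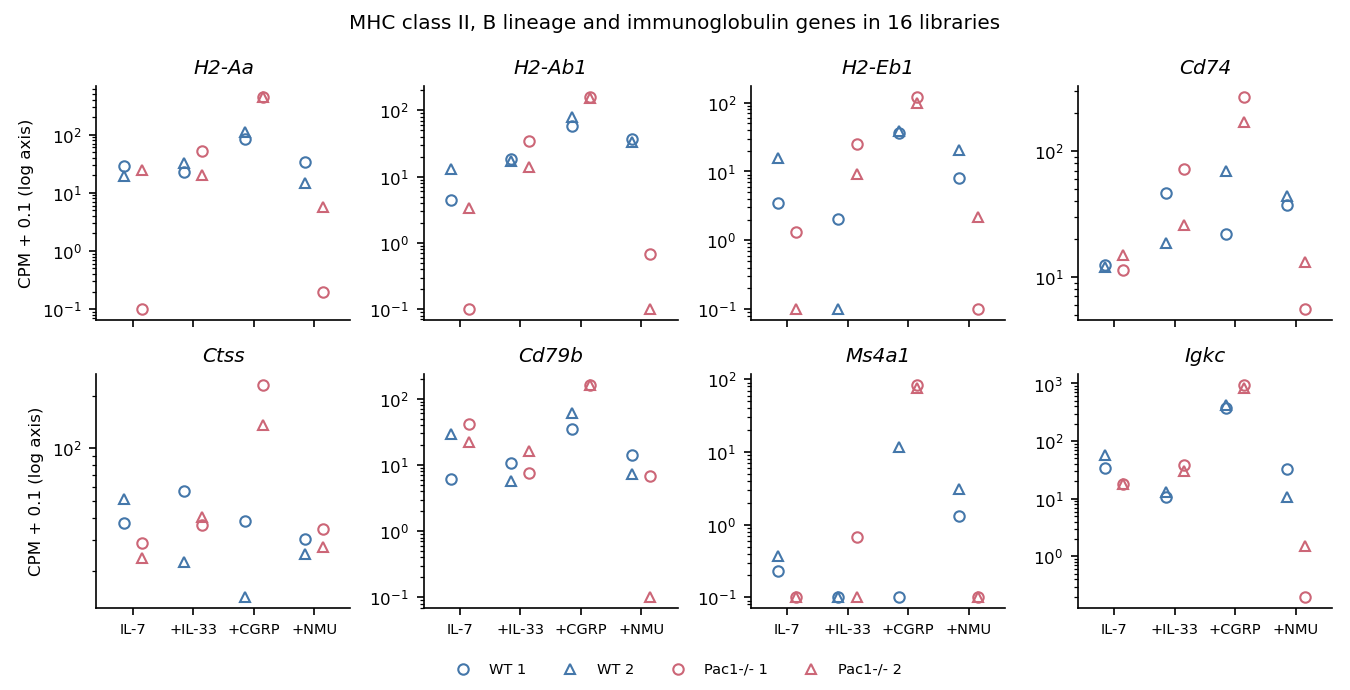
CPM plus 0.1 (log axes that differ between panels) of 8 genes in all 16 libraries by treatment, with circles for replicate 1, triangles for replicate 2, blue for WT, and red for *Pac1-/-*. The *Pac1-/-* libraries with CGRP are the highest of all 16 in every panel, and for *Igkc* the WT libraries with CGRP also lie above all libraries of the other treatments.

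Genes known from other lineages had no common direction. *Cd86*, a ligand of CD28 on antigen-presenting cells, had 0 counts in WT and 22.2 and 69.2 CPM in *Pac1-/-*, at least 164-fold higher. *Mmp12*, a metalloelastase known from macrophages, had 0 counts in WT and 59.9 and 24.1 CPM in *Pac1-/-*, at least 150.2-fold higher. *Tyrobp*, an adaptor for activating receptors, was at 4.04 and 4.29 CPM in WT and 51.1 and 50.7 CPM in *Pac1-/-* (log2 fold change 3.61 ± 0.57, DESeq2 adjusted P = 2.68e-06). The NK receptor genes *Klrc1*, *Klrd1*, and *Klre1* lay opposite, with 15.2 and 12.8, 21.3 and 5.11, and 13 and 6.34 CPM in WT and 0 counts in *Pac1-/-*, at least 43.5-fold, 41-fold, and 30.1-fold lower. *Cd96*, another receptor of this kind, was higher at 37.3 and 32.8 CPM in WT and 93.3 and 108 CPM in *Pac1-/-* (log2 fold change 1.52 ± 0.32, DESeq2 adjusted P = 0.0148). Of 12 tested cytotoxic and type 1 genes (27 listed), 3 were higher, 1 (8.33%) was separated upward, and 5 (41.7%) downward. The 5 include 2 genes at 0 counts in both *Pac1-/-* libraries, which entered the test only through WT libraries and could only be lower. *Gzma* and *Prf1* had 0 counts in all 4 libraries. *Stab2*, a scavenger receptor used here as an endothelial marker, was at 159 and 132 CPM in WT and 340.5 and 489.8 CPM in *Pac1-/-* (DESeq2 adjusted P = 2.55e-04). The 7 endothelial markers, all detected, summed at 235 and 171 CPM in WT and 375 and 536 CPM in *Pac1-/-*, with 2 of 5 tested separated upward and 1 downward. Without *Stab2* the sum was 75.9 and 39.2 CPM in WT and 34.7 and 46.6 CPM in *Pac1-/-*. *Cpa3*, a mast cell protease, was at 142 and 162 CPM in WT and 73.4 and 78.2 CPM in *Pac1-/-* (DESeq2 adjusted P = 0.0591), and the mast cell and basophil markers, 3 of 6 of which had 0 counts, summed at 142 and 177 CPM in WT and 73.4 and 78.4 CPM in *Pac1-/-*. Markers of T cells summed at 117 and 148 CPM in WT and 80.0 and 94.5 CPM in *Pac1-/-*, and those of NK cells, neutrophils, and eosinophils at no more than 4.12 CPM in any of the 4 libraries.

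The cytosolic ribosomal proteins differed little and evenly. Of 97 listed genes, 90 were tested, and 86 of these were higher in *Pac1-/-*, 60 (66.7%) separated upward and 1 (1.11%) downward. The differences were small, with a median log2 fold change of 0.27, a range of 0.21 to 0.35 for the median as each library was left out, 12 genes at an unadjusted P under 0.05, and 2 called by DESeq2. *Rps9* was at 1482 and 1611 CPM in WT and 2446 and 2294 CPM in *Pac1-/-* (log2 fold change 0.62 ± 0.13, DESeq2 adjusted P = 0.0185). *Rpl13* was at 4886 and 4561 CPM in WT and 7080.2 and 6340.1 CPM in *Pac1-/-* (log2 fold change 0.51 ± 0.12, DESeq2 adjusted P = 0.0768). *Rpl4* was at 2029 and 2211 CPM in WT and 3343 and 2838 CPM in *Pac1-/-* (log2 fold change 0.54 ± 0.14, DESeq2 adjusted P = 0.0932). For all 3 the gap between genotypes exceeded the gap between replicates. *Rps4l*, the other gene called, had 0 counts in WT and 9.49 and 14.9 CPM in *Pac1-/-*. The median was 0.03 (IL-7), -0.17 (IL-33), and 0.68 (NMU), so it was highest with NMU, and differences between treatments were not tested for the list.

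*Eef1a1*, an elongation factor that carries tRNA to the ribosome, was at 3200.4 and 3237 CPM in WT and 5798 and 4735 CPM in *Pac1-/-* (log2 fold change 0.71 ± 0.14, DESeq2 adjusted P = 0.0104), with log2 fold changes of -0.14 (IL-7), 0.04 (IL-33), and -0.20 (NMU). Its partners *Eef1g* and *Eef1d* were at 353 and 311 CPM in WT and 539 and 540.3 CPM in *Pac1-/-* (DESeq2 adjusted P = 0.0518) and 123 and 116 CPM in WT and 276 and 195 CPM in *Pac1-/-* (DESeq2 adjusted P = 0.0822). Over all 43 translation factors tested, 28 were higher, 12 (27.9%) were separated upward and 6 (14%) downward, and the median log2 fold change was 0.20, or 0.08 without *Pac1-/-* replicate 1. *Eif4b*, an initiation factor, was lower at 81 and 95.9 CPM in WT and 60.7 and 42.8 CPM in *Pac1-/-* (log2 fold change -0.77 ± 0.35). Many transcripts of this group begin with a run of pyrimidines after a C, through which translation is regulated. The starts of 3 genes with such a run are shown, from 10 bases before to 20 bases after the start (RefSeq starts, GRCm38.p6, 5′ to 3′). Capitals mark the run as searched from 3 bases before the start onward. In *Rps9* and *Eef1a1*, further pyrimidines precede the capitals. The same search gave no stretch for *Rpl13*, *Rpl4*, *Eef1g*, or *Eef1d*, because either no match or no promoter was found.
Rps9: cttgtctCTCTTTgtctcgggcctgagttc
Eef1a1: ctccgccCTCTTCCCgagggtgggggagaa
Rps18: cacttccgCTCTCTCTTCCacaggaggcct
They lie at chr7:3704031-3704060 (+ strand), chr9:78481705-78481734 (- strand), and chr17:33955646-33955675 (- strand). A C followed by at least 4 pyrimidines, beginning between 3 bases before and 5 bases after the start, was present in 30 of 74 promoters of 63 ribosomal protein genes (40.5%), in 19.5% of those of translation factors, and in 14.5% of all promoters. The 28 tested ribosomal protein genes with this run had a median log2 fold change of 0.26 and the 35 without it 0.28, so the difference was of like size in both.

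Nuclear genes of the mitochondria were lower for the most part. Of 36 complex I subunits, 5 were higher and 31 lower, 2 (5.56%) separated upward and 13 (36.1%) downward, with a median log2 fold change of -0.29, ranging from -0.45 without *Pac1-/-* replicate 2 to -0.15 without WT replicate 1. Of 43 tested subunits of complexes II to V (49 listed), 10 were higher, 4 (9.30%) separated upward and 17 (39.5%) downward, with a median of -0.22, or -0.13 without WT replicate 1. Of 77 tested mitochondrial ribosomal proteins, 31 were higher, 9 (11.7%) separated upward and 26 (33.8%) downward, with a median of -0.18. *Ndufa4* was at 1126 and 859 CPM in WT and 688 and 708 CPM in *Pac1-/-* (log2 fold change -0.51 ± 0.19) and *Cox6a1*, a subunit of cytochrome c oxidase, at 1596 and 1378 CPM in WT and 1099.6 and 1029 CPM in *Pac1-/-* (log2 fold change -0.48 ± 0.15). *Atp5k*, a subunit of ATP synthase, was at 178 and 163 CPM in WT and 105 and 101 CPM in *Pac1-/-* (log2 fold change -0.72 ± 0.22). In these 3 genes both *Pac1-/-* libraries were below both WT libraries, with unadjusted P values of 0.0487, 0.0268, and 0.0265 by edgeR's quasi-likelihood test. Exceptions were *Ndufv1* at 13.6 and 20.7 CPM in WT and 43.3 and 85.9 CPM in *Pac1-/-*, *Cox7a2l* at 273 and 304 CPM in WT and 535 and 454 CPM in *Pac1-/-* (DESeq2 adjusted P = 0.044), and *Cox4i1* at 531 and 546 CPM in WT and 711 and 763 CPM in *Pac1-/-*, all higher. The medians of the 3 lists were below 0 under every alternative and with each library left out. With IL-33 alone they were lower still (-0.50, -0.52, and -0.42), and with NMU they were above 0 (0.52, 0.57, and 0.13). Genes with short transcripts had medians of the same signs. The 501 shortest of the protein-coding genes of at least 50 CPM had medians of -0.15 with CGRP, -0.43 with IL-33, and 0.28 with NMU, and the part of transcript length was not tested. The median transcript length was 1026 bases for complex I and 1094 bases for ribosomal proteins, whose medians were 0.27 with CGRP, -0.17 with IL-33, and 0.68 with NMU. The 13 genes that mitochondria encode had a median of -0.12, with 2 higher, and the median was 0.14 without *Pac1-/-* replicate 1 and -0.44 without *Pac1-/-* replicate 2.

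**Figure D3:**
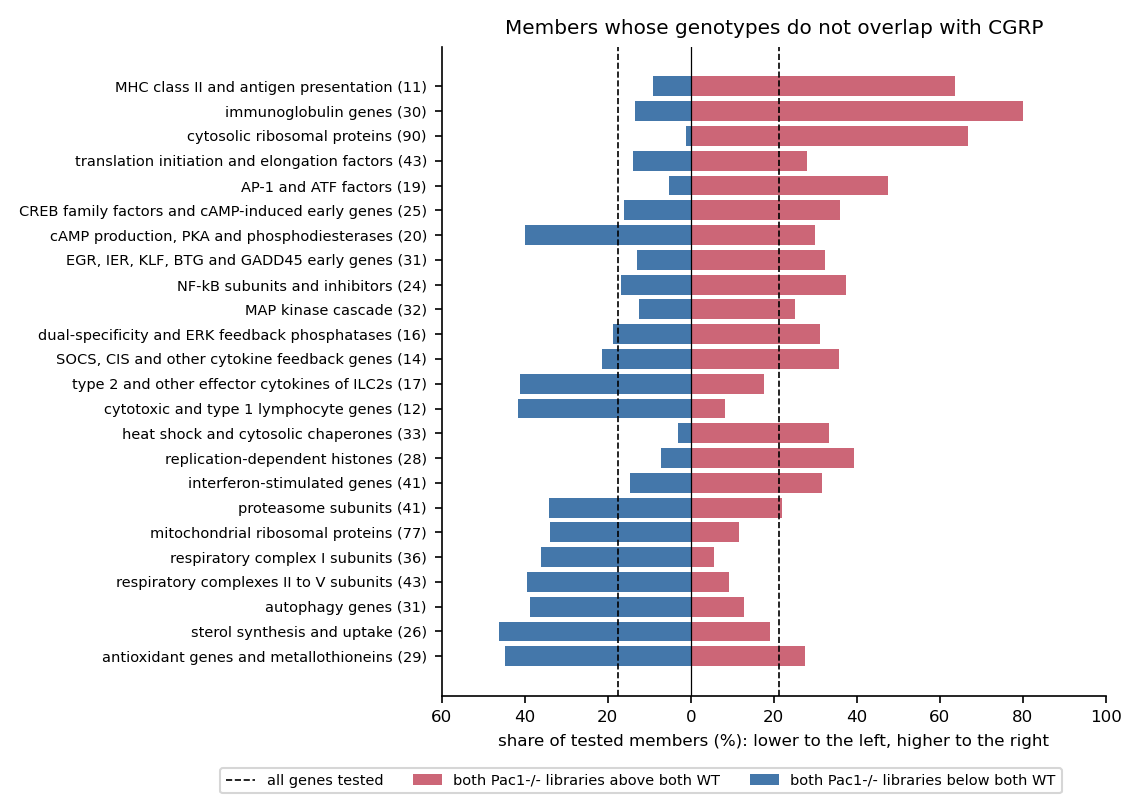
Share of tested members of 24 gene lists (number of tested members in parentheses) for which both *Pac1-/-* libraries lay above both WT libraries (red, to the right) or below both (blue, to the left) with CGRP. Dashed lines mark the shares over all 10912 genes tested, 21.3% and 17.6%, and ribosomal proteins, immunoglobulin genes, and MHC class II genes reach furthest to the right. The immunoglobulin bar includes 15 genes and the MHC class II bar 2 genes at 0 counts in both WT libraries, whose direction the filter fixed. Several other bars, such as replication-dependent histones with 3, also include genes at 0 counts in 1 genotype.

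Proteasome subunits were mixed. Of 41 tested, 18 were higher and 14 (34.1%) were separated downward, against 9 (22%) upward. *Psmb2*, a core subunit, was at 1558 and 1146 CPM in WT and 793 and 821 CPM in *Pac1-/-* (log2 fold change -0.74 ± 0.20), and DESeq2 called it lower (adjusted P = 0.0369). *Psmb1*, *Psma3*, and *Psmb3*, also of the core, had log2 fold changes of -0.50 ± 0.16, -0.40 ± 0.14, and -0.73 ± 0.27. In the secretory pathway, *Sec61b*, a subunit of the channel into the endoplasmic reticulum, was at 528 and 527 CPM in WT and 263 and 310.1 CPM in *Pac1-/-* (log2 fold change -0.88 ± 0.18, DESeq2 adjusted P = 0.00592). *Ostc*, of the complex that attaches N-glycans, was at 757 and 672 CPM in WT and 468 and 389 CPM in *Pac1-/-* (log2 fold change -0.74 ± 0.18, DESeq2 adjusted P = 0.0327). *Sel1l*, which serves degradation of misfolded proteins, was higher at 14.7 and 11.3 CPM in WT and 41.9 and 63.8 CPM in *Pac1-/-* (log2 fold change 2.02 ± 0.53, DESeq2 adjusted P = 0.0388). The 33 tested genes of the unfolded protein response and secretion as a list had a median of -0.08, or 0.02 without *Pac1-/-* replicate 2 and 0.04 without WT replicate 2.

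Chaperones of the heat shock families were higher for 25 of 33 tested genes, 11 (33.3%) separated upward and 1 (3.03%) downward, with a median log2 fold change of 0.24. *Hsp90ab1* was at 584 and 640.5 CPM in WT and 971 and 739 CPM in *Pac1-/-* (log2 fold change 0.48 ± 0.20), and *Fkbp4*, a cochaperone of HSP90, at 11.7 and 9.71 CPM in WT and 36.2 and 40.6 CPM in *Pac1-/-* (log2 fold change 1.84 ± 0.58, DESeq2 adjusted P = 0.0982). *Dnajb4* was at 58.5 and 43 CPM in WT and 87.7 and 156 CPM in *Pac1-/-* (log2 fold change 1.27 ± 0.41). None of the 33 was called by either tool. Among antioxidant genes and metallothioneins, 13 of 29 tested genes were higher, 8 (27.6%) separated upward and 13 (44.8%) downward. *Mt1*, a zinc-binding metallothionein, was at 101 and 75 CPM in WT and 263 and 249.9 CPM in *Pac1-/-* (log2 fold change 1.55 ± 0.25, DESeq2 adjusted P = 2.53e-04), and its log2 fold change was -1.15 (IL-7), 1.37 (IL-33), and -0.12 (NMU). *Nfe2l2*, which encodes the regulator NRF2, was at 79.9 and 99.2 CPM in WT and 133 and 165 CPM in *Pac1-/-* (log2 fold change 0.74 ± 0.27), whereas *Txn1*, thioredoxin, was lower at 1037 and 1090.1 CPM in WT and 818 and 782 CPM in *Pac1-/-* (log2 fold change -0.41 ± 0.14).

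Sterol synthesis and uptake genes were lower for 16 of 26 tested, with 5 (19.2%) separated upward, 12 (46.2%) downward, and a median log2 fold change of -0.34 (-0.21 without WT replicate 2), against 0.24 (IL-7), 0.40 (IL-33), and -0.01 (NMU). The members that DESeq2 called had few counts in 1 genotype. *Nsdhl* had 56.9 and 1.94 CPM in WT and 0 counts in *Pac1-/-*, and its replicates differed widely. *Acat2* was at 8.24 and 18.5 CPM in WT and 0.846 and 0.12 CPM in *Pac1-/-* (adjusted P = 0.0433 by DESeq2), and *Mvd* had 0 counts in WT and 17.7 and 2.17 CPM in *Pac1-/-*. Autophagy genes were lower for 18 of 31 tested, with 12 (38.7%) separated downward and 4 (12.9%) upward. Their median log2 fold change was -0.22 and turned to 0.07 without WT replicate 2. *Map1lc3b*, which encodes the autophagosome protein LC3B, was at 1669 and 1342 CPM in WT and 1135 and 1130.2 CPM in *Pac1-/-* (log2 fold change -0.41 ± 0.16), and *Gabarap*, of the same family, at 386 and 329.5 CPM in WT and 275 and 259 CPM in *Pac1-/-* (log2 fold change -0.42 ± 0.19). *Ulk1*, the kinase that starts autophagy, had 0 counts in WT and 14.4 and 5.18 CPM in *Pac1-/-* (DESeq2, adjusted P = 0.00594). Glycolytic genes were balanced, with 16 of 32 higher. *Hif1a*, the hypoxia-inducible factor, was at 634 and 684 CPM in WT and 438 and 425 CPM in *Pac1-/-* (log2 fold change -0.61 ± 0.15, DESeq2 adjusted P = 0.0512), and *Higd1a*, a mitochondrial protein it induces, at 766 and 507 CPM in WT and 377 and 335 CPM in *Pac1-/-* (log2 fold change -0.84 ± 0.26, DESeq2 adjusted P = 0.0757). For *Hif1a*, the other treatments gave log2 fold changes of 0.52 (IL-7), 0.47 (IL-33), and 0.43 (NMU), each above 0.

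**Figure D4:**
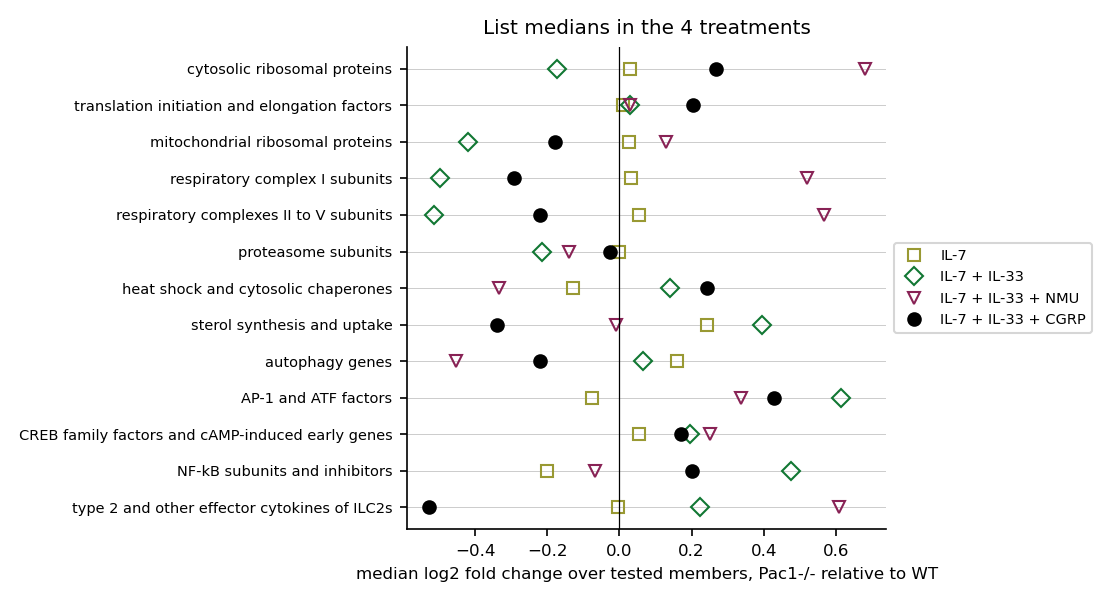
Median log2 fold change over the tested members of 13 gene lists in each of the 4 treatments, with a filled circle for CGRP and open symbols for IL-7 (square), IL-33 (diamond), and NMU (triangle). With CGRP, the effector cytokine list has the lowest median (-0.53) and the AP-1 list the highest (0.43), and for the respiratory lists the CGRP value lies between those of IL-33 and NMU.

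Among the highest expressed of the 30 named genes, *H2afz*, which encodes the histone variant H2A.Z, was at 10003 and 8149.7 CPM in WT and 3564 and 4133 CPM in *Pac1-/-* (log2 fold change -1.24 ± 0.16, DESeq2 adjusted P = 1.22e-07). It was also lower with IL-33 (-1.24). *S100a10*, a partner of annexin A2, was at 2833 and 2355 CPM in WT and 1550.2 and 1579.8 CPM in *Pac1-/-* (log2 fold change -0.73 ± 0.15, DESeq2 adjusted P = 0.00515). *Dynlrb1*, a dynein light chain, was at 810.1 and 780.0 CPM in WT and 476 and 471 CPM in *Pac1-/-* (log2 fold change -0.75 ± 0.14), and *Cks2*, a subunit of cyclin-dependent kinases, at 269 and 218 CPM in WT and 108 and 114 CPM in *Pac1-/-* (log2 fold change -1.13 ± 0.22). *Otulinl* was at 366 and 407 CPM in WT and 184 and 174 CPM in *Pac1-/-* (log2 fold change -1.11 ± 0.18). Replication-dependent histones were higher for 19 of 28 tested of 67 listed, 3 of these at 0 counts in both WT libraries. Their median log2 fold change of 0.50 was 0.08 without *Pac1-/-* replicate 1 and 1.499 without WT replicate 1, while their sum was lower in *Pac1-/-*, at 416 and 457 CPM in WT and 390.3 and 341 CPM in *Pac1-/-*. *Ifi208*, of an interferon-inducible family, had 1 count in each WT library and 42.6 and 13.5 CPM in *Pac1-/-*, a ratio of 323-fold (95% counting interval 89 to 2675). *Prdm15*, a zinc finger factor, was at 52.9 and 28.3 CPM in WT and 1.41 and 0.843 CPM in *Pac1-/-*. *Piga*, which starts the synthesis of GPI anchors, and the zinc finger genes *Zfp955b* and *Zfp677* had 0 counts in *Pac1-/-* and 18 and 32.1, 22.6 and 29.4, and 31 and 19.3 CPM in WT, and *Zfp994* had 1 count in *Pac1-/-* libraries against 26.2 and 23.8 CPM, a ratio of 476-fold (95% counting interval 85 to 18820.0). Over all 214 tested Zfp genes, 104 were higher, 30 (14%) were separated upward, and 42 (19.6%) downward, and reads of near-identical family members are uncertain between them.

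Some genes had 0 counts throughout 1 genotype. Genes of at least 20 CPM in both *Pac1-/-* and 0 counts in both WT libraries numbered 10, and the reverse held for 1, *Zfp955b*. The 10 were *Ccl4*, *Cd86*, *Mmp12*, C87436, and 6 Igkv genes. Between replicates of 1 genotype, genes of at least 20 CPM in 1 library and 0 counts in the other numbered 43 and 60 within WT and 47 and 20 within *Pac1-/-*. For 2 single libraries of different genotypes this number was 20 to 88, so a gene missing from 1 library was common among replicates too.

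Whether a genotype difference was particular to CGRP was tested over all 16 libraries, as the log2 fold change with CGRP minus the mean of those in the other 3 treatments. Of 14979 genes, 8 (0.0534%) passed by the quasi-likelihood F test of edgeR after Benjamini-Hochberg adjustment. *Il9* differed by -5.37 (edgeR adjusted P = 0.0134), with log2 fold changes of 0.09 (IL-7), -1.12 (IL-33), and 0.53 (NMU). *Vps54*, a subunit of a complex that tethers vesicles to the Golgi apparatus, differed by -2.63 (edgeR adjusted P = 0.0313), and was at 76.6 and 62.1 CPM in WT and 17.5 and 15.1 CPM in *Pac1-/-*, against log2 fold changes of 0.54 (IL-7), 0.57 (IL-33), and 0.57 (NMU). C87436 and *Rce1*, which encodes a protease of prenylated proteins, had 0 counts in WT and 30.4 and 28.4 and 24.7 and 10.8 CPM in *Pac1-/-*. *Jpt2* had 1 count in WT and 23.1 and 20.6 CPM in *Pac1-/-*, a ratio of 477-fold (95% counting interval 85.1 to 18880.0). *Tcrg-C2*, a T cell receptor γ constant gene, was at 0.0841 and 0.818 CPM in WT and 27 and 25.2 CPM in *Pac1-/-*, and both *Pac1-/-* libraries stood well above both WT libraries. *Nme6*, a nucleoside diphosphate kinase, had 7.99 and 31.9 CPM in WT and 0 counts in *Pac1-/-*, and *Zfp788* 16.9 and 42 CPM in WT and 1 count in *Pac1-/-*. *Il9* was the 1 gene of the 8 that passed with each of the 4 CGRP libraries left out in turn (adjusted P = 0.00145 to 0.0429 by edgeR's quasi-likelihood test). Without *Pac1-/-* replicate 1, *Nme6* and *Zfp788* no longer passed (0.0501 and 0.0708). Without *Pac1-/-* replicate 2, *Nme6*, *Vps54*, *Tcrg-C2*, and *Zfp788* did not (0.0502 to 0.114). Without WT replicate 1, C87436, *Jpt2*, *Vps54*, *Tcrg-C2*, and *Rce1* did not (0.0577 to 0.0915), and without WT replicate 2, *Rce1* did not (0.0597). Against IL-33 alone as the reference, none of the 8 passed (adjusted P = 0.748 to 0.853 by edgeR's quasi-likelihood test). That comparison used 8 libraries in place of 16.

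**Figure D5:**
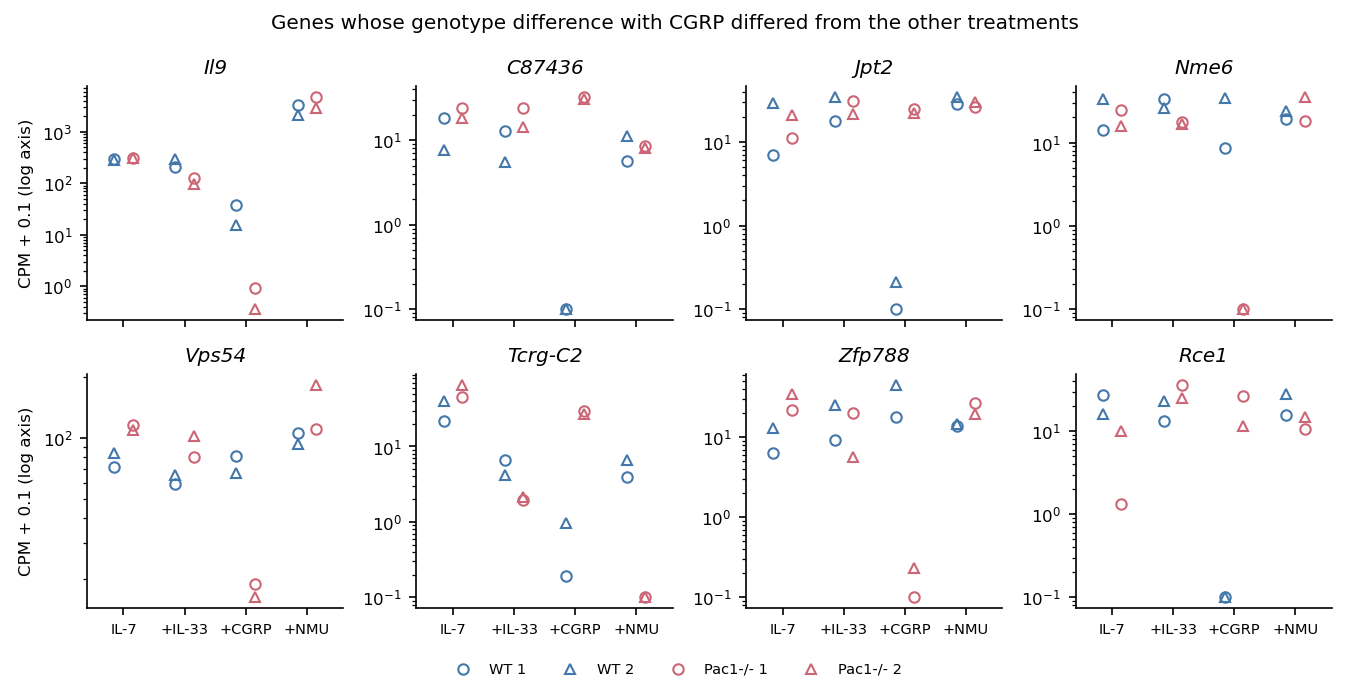
CPM plus 0.1 (log axes that differ between panels) in all 16 libraries by treatment for the 8 genes whose genotype difference with CGRP differed from the mean of the other treatments, with circles for replicate 1, triangles for replicate 2, blue for WT, and red for *Pac1-/-*. In each panel the genotypes are separated with CGRP, and for *Il9* both genotypes are lower with CGRP than with any other treatment.

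Genes that differed between genotypes without CGRP were few. Over the 12 other libraries, 6 of 13768 genes (0.0436%) passed by edgeR's quasi-likelihood test with treatment as a covariate. Of the 6, 4 were higher and 2 lower in *Pac1-/-*, and a gene among the higher ones is not described here. Of the 30 genes named for CGRP, 2 were among the 6. *Gm42031*, a long noncoding RNA gene, was at 219 and 165 CPM in WT and 1.79 and 7.11 CPM in *Pac1-/-*, with log2 fold changes of -5.45 with CGRP and -8.93 (IL-7), -8.75 (IL-33), and -8.37 (NMU). *Gm10320* was at 4.46 and 9.0 CPM in WT and 90.7 and 108 CPM in *Pac1-/-*, with log2 fold changes of 3.88 with CGRP and 4.27 (IL-7), 3.53 (IL-33), and 5.32 (NMU). *Trdc*, a T cell receptor δ constant gene, *Gm15446*, and *Gm28438* had log2 fold changes of 3.87, 3.58, and -4.38 with CGRP, in the same direction as without it. Reads of these genes may belong to near-identical or overlapping genes. Across 10410 genes measured in both, the log2 fold change with CGRP had a Pearson r of 0.053 with that of the 12 libraries without CGRP, and 0.118 over 2669 genes of at least 50 CPM, as a description across genes, which are not independent.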

How the data were processed

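The authors deposited raw read counts per Ensembl gene for 16 libraries, made from paired-end reads that were aligned to mm10 with HISAT2. The counting tool, the annotation, and the use of strand are not given in the sources used here. Groups were taken from the sample labels. Of 51912 gene identifiers, 51719 were found in GENCODE M21, which gave symbols, positions, and lengths. *Pac1-/-* and WT libraries with CGRP were compared in R 4.3.3 with edgeR 4.0.16 (TMM scaling, filterByExpr, quasi-likelihood test with Benjamini-Hochberg adjustment, fold change over 1.5, adjusted *P* under 0.05), and as an alternative with DESeq2 1.42.0, the tool of the study. The difference from the other treatments was a contrast in 1 edgeR fit over 8 groups. The code was tested on simulated data.

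Named were *Dusp2*, the 30 genes described, key members of each of 47 gene lists with up to 4 members of smallest *P*, and up to 10 genes of the contrast. A further 22 families were defined by symbol. These members and lists were chosen with earlier results of these data known. Cell type markers, *Rps18*, and genes named for differing without CGRP fell outside the rule and were chosen after their values were seen. Promoters were RefSeq windows from 250 bases before to 50 bases after a start. Alternatives were other scalings, filters, and samples, a replicate block, and the omission of each library.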

Additional observations from a re-analysis of the deposited data

Results flagged for a closer look

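For 8 genes, the genotype difference with CGRP differed from the mean of those in the other 3 treatments in a test of that difference over 16 libraries (the quasi-likelihood test of edgeR with Benjamini-Hochberg adjustment). On the log2 scale, the difference was -5.37 for *Il9*, -10.66 for *Nme6*, -9.43 for *Zfp788*, and -2.63 for *Vps54*, the genes lower with CGRP in *Pac1-/-* libraries. It was 10.87 for C87436, 8.70 for *Jpt2*, 9.01 for *Tcrg-C2*, and 11.40 for *Rce1*, the genes higher there. Adjusted *P* values by edgeR ranged from 0.0134 to 0.0427. For *Nme6*, C87436, and *Rce1*, 1 genotype had 0 counts in both CGRP libraries, and for *Jpt2* and *Zfp788* 1 genotype had 1 count. For all of these genes the fitted difference is no measure of size. *Il9* in *Pac1-/-* replicate 2 and *Tcrg-C2* in WT replicate 1 lay below the floor of 3 counts, so the size of their differences is uncertain too. *Il9* and *Vps54* had counts above 0 in all 4 CGRP libraries and more than 10 CPM in both WT libraries, as had *Tcrg-C2* in both *Pac1-/-* libraries.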

How the results depend on the processing

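With CGRP, edgeR called 0 genes with RLE factors, at least 10 counts in every library, a replicate block, no minimum fold, or any library left out, whereas DESeq2 called 329, a fit over 16 libraries 16, and edgeR without a filter 82. Genes at an unadjusted *P* under 0.05 numbered 822, 1532 by DESeq2, 519 with at least 10 counts, 341 with the replicate block (165 higher and 176 lower, against 486 and 336), and 485 (without *Pac1-/-* replicate 2) to 942 with a library left out. Replicate numbers did not pair the samples (correlation of deviations 0.000872 over 10912 genes). The contrast of CGRP with the other treatments called 8 genes, 0 against IL-33 alone, 350 by DESeq2, 0 with at least 10 counts, 123 without a filter, 8 with the replicate block (in which *Rce1* no longer passed), and 8 to 44 with a library left out (42 without *Pac1-/-* replicate 1, 44 without WT replicate 2). Without CGRP, edgeR called 6 genes, DESeq2 112, and edgeR without a filter 45. The causes were not tested. As each library was left out, the log2 fold change ranged across 0 for *Calcrl* (-0.247 to 0.311), *Prkar1a* (-0.167 to 0.116), *Nr4a3* (-0.347 to 0.026), *Il2* (-0.182 to 0.243, and -0.004 by DESeq2), *Csf2* (-0.053 to 0.227), *Areg* (-0.039 to 0.124), and *Rora* (-0.142 to 0.009). No other of the 192 genes in this check turned its sign, and none of them passed a test that it had failed under the replicate block. The check did not hold every gene named above. *Jun* and *Ciita*, whose genotypes overlapped, were not in it. Without WT replicate 1, the *Pac1-/-* mean of either gene lay above the WT library left, so their direction is open too. List medians were above 0 for 39 of 69 lists and families, and for 32 to 48 under the alternatives. The median of all genes moved by over 0.1 with DESeq2 (0.32), no filter (0.32), and without WT replicate 2 (0.12).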
